A study of Mus musculus with 10 samples.

Results

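Transcripts of 39 genes of homologous recombination, Fanconi anaemia repair and the linked checkpoint were followed in nonclassical monocytes with and without LAIR1, an inhibitory leukocyte receptor that binds collagen domains. The 39 genes were listed by name and found in the deposited count table by matching its Ensembl identifiers to mouse symbols. The table holds 52636 genes, of which 13469 were abundant enough to test, and all 39 repair genes were among them. Nonclassical monocytes crawl along and survey vessel walls. They were sorted from mouse bone marrow to a stated purity of 98%, with 5000 to 10000 cells per preparation, and RNA was sequenced from 5 WT libraries (genotype LAIR1+/+) and 5 LAIR1KO libraries (genotype LAIR1-/-, named LAIRKO in the sample titles). The labels name no treatment. Strain, age, sex and the construction of the Lair1 allele are not given in the labels. Nor is it stated that each library came from its own mouse, and p-values therefore measure only how the libraries vary, which may be technical. The comparison asks which transcripts of these cells differ without LAIR1.

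Homologous recombination repairs a broken chromosome by copying the intact sister. The broken end is trimmed by nucleases, BRCA1-BARD1, PALB2 and BRCA2 act on the exposed strand so that it can pair with the sister, and helicases and nucleases resolve the joined molecules. The Fanconi pathway handles DNA strands that are linked to each other: a core complex and the enzyme UBE2T attach ubiquitin to FANCD2 and FANCI, which then call in nucleases and the recombination proteins. ATM, ATR, CHEK1 and CHEK2 are the kinases that halt the cell cycle meanwhile. Many of these genes are transcribed in S and G2 phase, when a sister is present, and nonclassical monocytes in blood are as a rule non-dividing cells.

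The libraries held 12106209 to 15356924 counts. Lair1 stood at 374 ± 27.7 CPM (counts scaled to library size by TMM; SD, n = 5) in WT and at 0.226 ± 0.276 CPM in LAIR1KO, with 24186 counts in all WT libraries against 17 in all LAIR1KO libraries, so every library matched its genotype label (two-sided exact permutation p = 0.00794, the smallest that 5 against 5 allows). The 10 nonclassical monocyte markers were abundant, with summed levels of 13558 to 16716 CPM in WT and 10872 to 14492 CPM in LAIR1KO, and all 10 fold changes were below 0 with none past the threshold. Myeloid progenitor markers, summed over 10 genes, stood at 536 to 1420 CPM in WT and 3236 to 6857 CPM in LAIR1KO, and 8 of the 10 were higher in LAIR1KO. Most of this sum was Mpo, with means of 518 and 3401 CPM in WT and LAIR1KO, against mean sums of 838 and 4673 CPM. Tissue macrophage markers went the other way, from 1521 to 2053 CPM down to 833 to 1069 CPM over 7 genes, of which 6 were lower. The other summed levels overlapped between the groups. In WT and LAIR1KO they were 666 to 1127 and 852 to 1310 CPM for 5 classical monocyte genes (2 higher), 749 to 1725 and 997 to 1322 CPM for 6 neutrophil genes (0 called) and 957 to 1399 and 913 to 1390 CPM for 7 B cell genes (0 called). For 6 dendritic cell genes (1 higher, 2 lower), 5 T and NK cell genes (1 tested and higher) and 7 erythroid genes (4 lower) the ranges were 154 to 227 and 171 to 245, 6.43 to 21.6 and 20.9 to 47.2, and 79.0 to 1282 and 36.2 to 115 CPM. No marker was at 0 in all libraries, and the part of any of these RNAs in the results below was not tested. In bulk RNA, more cells of a type and more RNA per cell cannot be told apart.

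Of the 39 repair genes 15 were higher in LAIR1KO and 0 were lower (edgeR quasi-likelihood test, Benjamini-Hochberg adjusted p under 0.05 over all tested genes). Among all 13469 tested genes 6.79% changed, 5.11% higher and 1.68% lower. At an unadjusted p under 0.05, 25 of the 39 were higher and 1, Fance, was lower. The share of all tested genes at an unadjusted p is not given, so nothing is read from such counts here or below. DESeq2 and limma voom also called 0 of the 39 lower. The median log2 fold change (LAIR1KO minus WT) was 0.49 over the 39 genes and -0.0018 over all tested genes. Of the 39 values 34 were above 0, against 49.7% of all tested genes. The 15 changed genes rose by 1.31 to 3.49 times. For 12 of the 39 genes every LAIR1KO library lay above every WT library, which held for 5.61% of all tested genes, and for 0 every LAIR1KO library lay below, against 2.06% (7.66% in either direction). When libraries were scaled by their totals, the median of all genes moved to 0.13 and 18 repair genes were higher. With that scaling 90.1% of all calls were in the higher direction, against 75.3% with TMM and 62.3% after a trend with GC and length was taken out of every library.

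The count of changed repair genes varied with the libraries included. It lay between 9 and 18 when 1 library was left out, with the lowest value without LAIR1KO replicate 5. Without LAIR1KO replicates 4 and 5 together 3 genes passed, namely Brip1, Exo1 and Clspn, and the median log2 fold change of the 39 genes was 0.40. Without WT replicates 1 and 4 together 4 genes passed, the same 3 and Rad54l, with a median of 0.58. Over all tested genes 914 passed with every library, 376 without the first pair and 338 without the second. The fits without a pair have fewer samples. LAIR1KO replicates 4 and 5 held the highest LAIR1KO value for 12 and 19 of the 39 genes, and LAIR1KO replicate 3 the lowest for 18. Replicates 4 and 5 also had the highest LAIR1KO progenitor sums, 5527 and 6857 CPM, and the smallest LAIR1KO totals, 12106209 and 12636714 counts. Whether these differences bear on the repair genes was not tested.

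**Figure D1:**
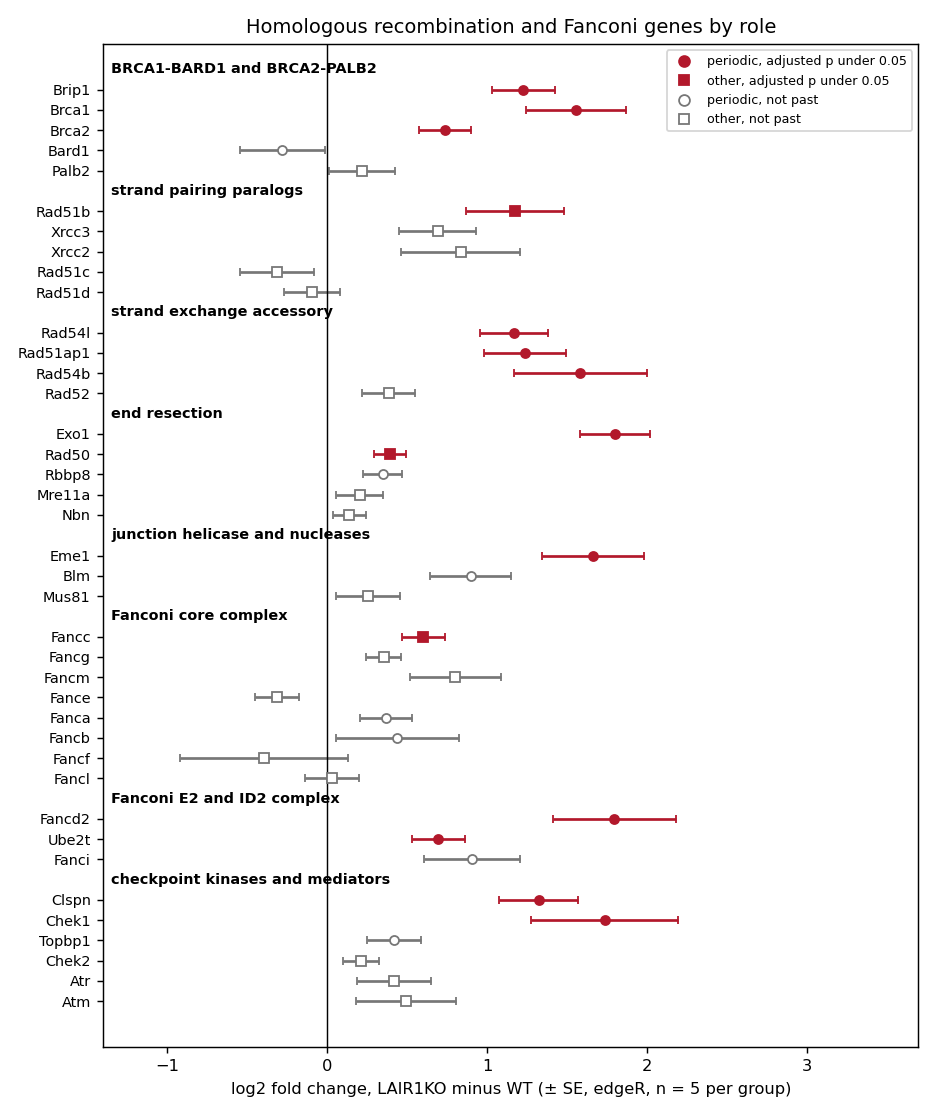
Log2 fold change (LAIR1KO minus WT, horizontal axis) of each of the 39 repair genes with its SE, grouped by role. Filled red symbols passed an adjusted p of 0.05. Circles are genes classed from textbook knowledge as transcribed in S and G2 phase, with earlier results known, and squares are the others. The 15 filled symbols all lie to the right of 0, and 12 of them are circles.

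**Figure D2:**
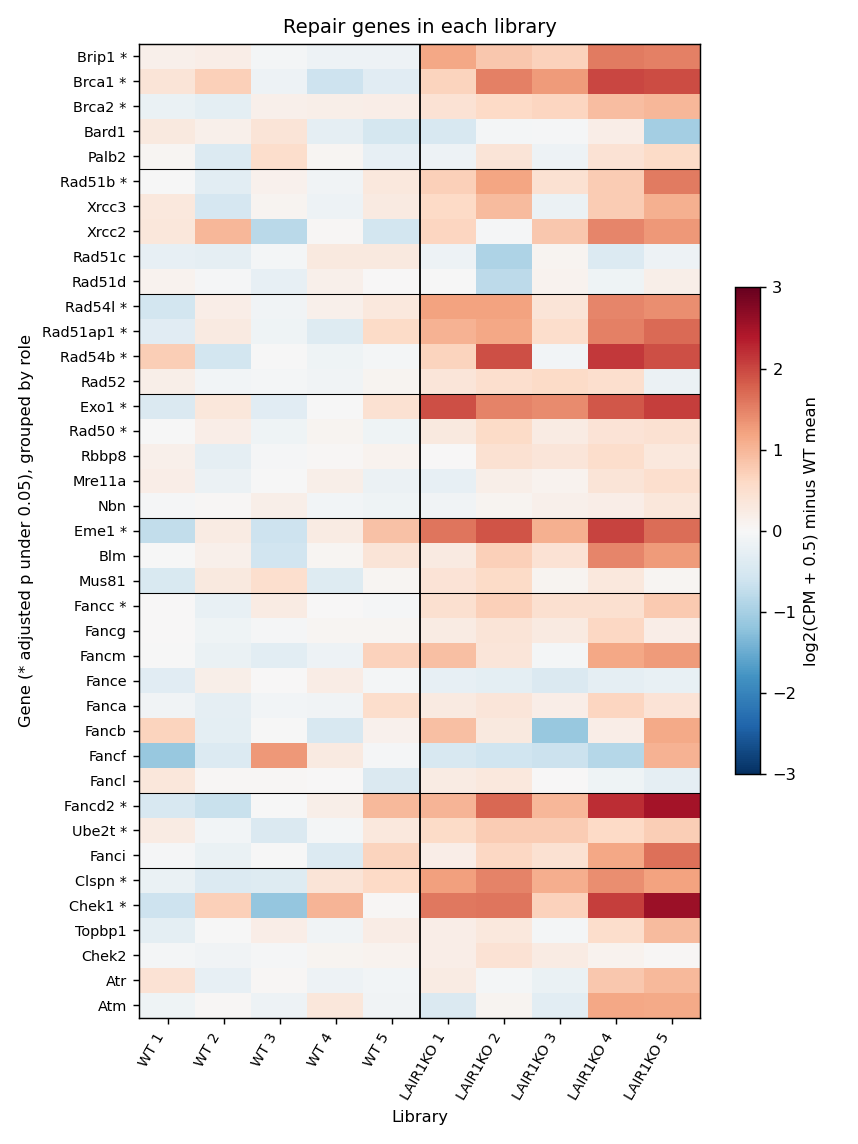
Level of each repair gene (rows, grouped by role) in each library (columns), as log2(CPM + 0.5) minus the WT mean; red is above and blue below that mean, and asterisks mark the 15 genes past the threshold. Of the 39 genes, 12 had their highest LAIR1KO value in replicate 4 and 19 in replicate 5.

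Genes classed as transcribed in S and G2 phase made up most of the changed genes. The classes were made with earlier results of these data known, and timing in the cell cycle was not measured in these cells. From textbook knowledge 19 of the 39 were classed as periodic, and 12 of these rose, with a median log2 fold change of 1.17. Of the 20 others 3 rose, with a median of 0.30. The difference between the classes was not tested. In WT the 12 periodic genes that rose had low levels, with a median of 6.58 CPM, and their median in LAIR1KO was 16.8 CPM. Without LAIR1KO replicates 4 and 5 the counts were 3 of 19 and 0 of 20 and the medians 0.92 and 0.24, and without WT replicates 1 and 4 they were 4 and 0, with medians of 1.002 and 0.36.

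Among the genes for BRCA1, BRCA2 and proteins bound to them, 3 of 5 rose. Brip1 encodes the helicase bound by BRCA1 (GRCm38 chromosome 11, 86058138 to 86201193, minus strand). It stood at 10.4, 10.7, 8.78, 8.28 and 8.21 CPM in WT replicates 1 to 5 and at 21.3, 16.5, 15.2, 28.3 and 27.2 CPM in LAIR1KO replicates 1 to 5. The groups did not overlap, and LAIR1KO replicates 4 and 5 were the highest. Its log2 fold change of 1.23 ± 0.20 (SE) passed (edgeR adjusted p = 0.00280). Brca1, whose product is a ubiquitin ligase and scaffold of repair (chromosome 11, 101488764 to 101551955, minus strand), was at 7.70, 9.85, 5.21, 3.59 and 4.49 CPM in WT and at 9.46, 17.5, 14.7, 24.8 and 24.1 CPM in LAIR1KO. LAIR1KO replicate 1 fell within the WT range, and the log2 fold change was 1.56 ± 0.31 (edgeR adjusted p = 0.0100, and 0.0826 without LAIR1KO replicates 4 and 5). Brca2, a tumour suppressor that binds the trimmed ends (chromosome 5, 150522630 to 150570329, plus strand), went from 10.4 to 14.8 CPM across WT to 17.5 to 26.4 CPM across LAIR1KO. Its groups did not overlap, and the log2 fold change was 0.74 ± 0.16 (edgeR adjusted p = 0.0166, and 0.0504 without LAIR1KO replicate 4).

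The other genes of this role, Bard1 and Palb2, did not pass. Bard1, which forms the active ligase with BRCA1, was at 9.70, 8.75, 10.4, 6.42 and 5.27 CPM in WT and 5.50, 7.53, 7.62, 9.11 and 3.62 CPM in LAIR1KO. The groups overlapped, and the log2 fold change of -0.28 ± 0.27 had a 95% interval of -0.89 to 0.34 (edgeR adjusted p = 0.593). Palb2, which links BRCA2 to BRCA1, stood at 11.8 to 22.8 CPM in WT and 14.1 to 23.7 CPM in LAIR1KO (edgeR adjusted p = 0.594). The estimates for Brca1 and Bard1, both classed as periodic, thus differed in sign. The interval of Bard1 includes 0, so the direction of its change is not settled.

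The start regions of both genes, and those of 3 other members that hold a match to the E2F site bound by the main S phase factors, are shown (Clspn, Fancg and Rad51c also hold a match and are not shown) because such matches occur both among genes that rose and among genes that did not pass. The stretches are from RefSeq on GRCm38.p6, read 5′ to 3′ on the strand of the gene, and lie before the start and outside every annotated exon. Capitals mark matches to an E2F site (TTTGGCGC, TTTCGCGC, TTTGCCGC or TTTCCCGC) or to TTTGAA, the cell cycle homology element of many G2 phase genes, on either strand. Brca1 is at chr11:101551956-101552075 (minus strand), Bard1 at chr1:71103147-71103222 (minus), Brca2 at chr5:150522397-150522516 (plus), Chek2 at chr5:110839778-110839897 (plus) and Topbp1 at chr9:103305095-103305214 (plus).
Brca1: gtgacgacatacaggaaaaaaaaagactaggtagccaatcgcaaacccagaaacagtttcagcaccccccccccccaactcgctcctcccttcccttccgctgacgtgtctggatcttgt
Bard1: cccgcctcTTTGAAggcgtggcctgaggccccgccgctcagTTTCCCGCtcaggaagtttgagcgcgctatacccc
Brca2: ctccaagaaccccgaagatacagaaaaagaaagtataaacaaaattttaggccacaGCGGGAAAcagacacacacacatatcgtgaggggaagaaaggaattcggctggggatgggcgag
Chek2: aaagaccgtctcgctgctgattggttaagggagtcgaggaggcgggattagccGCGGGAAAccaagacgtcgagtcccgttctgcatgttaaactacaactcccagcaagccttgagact
Topbp1: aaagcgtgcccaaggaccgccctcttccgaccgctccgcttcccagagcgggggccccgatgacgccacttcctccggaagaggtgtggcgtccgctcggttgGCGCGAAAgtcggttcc
Brca1, which rose, has no match in this stretch, while Bard1, which did not pass, has both an E2F match and a TTTGAA. The E2F letters TTTCCCGC occur in Brca2, which rose, and in Bard1, Chek2, Fancg and Rad51c, which did not pass. In the window from 250 bases before to 50 after the start, 31 of the 39 genes had an entry and 7 of them (22.6%) held an E2F match, against 2.61% of the 27025 genes in the table. The share was 2 of 11 genes that rose and 5 of 20 that did not. For TTTGAA the count was 3 of 31, or 9.68%, against 20.2% of all genes. A match is a description of these letters and not a bound site.

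Of the 5 paralog genes Rad51b, Rad51c, Rad51d, Xrcc2 and Xrcc3, whose products act together in strand pairing, 1 rose. Rad51b was the lowest of the 39 genes per length in WT (0.431 ± 0.0917 CPM per kb of exon). It stood at 1.59, 1.18, 1.78, 1.45 and 2.09 CPM in WT and 2.94, 4.24, 2.39, 3.04 and 5.72 CPM in LAIR1KO, without overlap (log2 fold change 1.17 ± 0.31, edgeR adjusted p = 0.0375). Leaving out single libraries in turn ended the call in 7 of 10 fits (adjusted p up to 0.111), all but those without WT replicate 5, LAIR1KO replicate 1 or LAIR1KO replicate 3. Xrcc3 had a log2 fold change of 0.69 ± 0.24 (edgeR adjusted p = 0.112, and 0.0198 without LAIR1KO replicate 3) and Xrcc2 one of 0.83 ± 0.37 (edgeR adjusted p = 0.215). Rad51c stood at 7.28 ± 1.51 and 5.85 ± 1.51 CPM and Rad51d at 27.6 ± 3.0 and 25.8 ± 6.1 CPM in WT and LAIR1KO (SD, n = 5), and neither passed (edgeR adjusted p = 0.469 and 0.805).

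Of the 4 genes for accessory proteins of strand exchange 3 rose. Rad54l, a DNA motor protein of strand invasion (chromosome 4, 116094264 to 116123690, minus strand), was at 12.8, 22.0, 17.7, 21.1 and 23.9 CPM in WT and 44.4, 44.9, 25.3, 53.8 and 51.0 CPM in LAIR1KO. LAIR1KO replicate 3 lay just above the highest WT library and the other 4 well above it (log2 fold change 1.17 ± 0.21, edgeR adjusted p = 0.00570, and 0.0509 without LAIR1KO replicates 4 and 5). Exons of Rad54l overlapped those of the antisense gene Lrrc41 over 15.4% of their length. Lrrc41 had a mean of 974 counts against 440 and a log2 fold change of -0.019, and without a stated strand setting reads of such pairs cannot be told apart. Rad51ap1, a stimulator of strand pairing, ranged from 6.55 to 13.3 CPM in WT and from 12.8 to 29.9 CPM in LAIR1KO, where only replicate 3 fell within the WT range (log2 fold change 1.24 ± 0.25, edgeR adjusted p = 0.0113). Rad54b, a relative of Rad54l, was at 6.69, 2.44, 3.79, 3.45 and 3.64 CPM in WT and 6.39, 16.1, 3.58, 18.1 and 15.9 CPM in LAIR1KO. LAIR1KO replicates 1 and 3 were thus within the WT range and the other 3 far above it (1.58 ± 0.42, edgeR adjusted p = 0.0380). Leaving out single libraries ended its call in 7 of 10 fits (adjusted p up to 0.103), all but those without WT replicate 1, LAIR1KO replicate 1 or LAIR1KO replicate 3, and limma voom did not call it. Exons of Rad54b shared 35.8% of their length with Fsbp on the same strand, which had a mean of 3.3 counts against 110.3. Rad52, an annealing protein, had a log2 fold change of 0.38 ± 0.16 (edgeR adjusted p = 0.193).

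Of the 5 end resection genes 2 rose, the exonuclease of S phase and 1 subunit of the MRE11-RAD50-NBN complex. Exo1, the long-range exonuclease (chromosome 1, 175880581 to 175913489, plus strand), and Fancd2 had the 2 highest fold changes of the 39 genes, closer to each other than their SE. Exo1 levels were 4.85, 8.67, 5.21, 6.69 and 9.53 CPM in WT and 27.1, 19.97, 18.8, 26.1 and 29.996 CPM in LAIR1KO. All LAIR1KO libraries were thus far above all WT libraries, and the log2 fold change came to 1.80 ± 0.22 (edgeR adjusted p = 6.61e-04). Without LAIR1KO replicates 4 and 5 it was 1.65 (adjusted p = 0.00795). Rad50, the ATPase that tethers DNA ends, was at 69.2, 80.2, 64.1, 74.6 and 63.8 CPM in WT and 86.5, 104, 83.2, 93.3 and 95.6 CPM in LAIR1KO. The groups did not overlap, but the change was small (0.39 ± 0.10, edgeR adjusted p = 0.0322). Leaving out single libraries ended the Rad50 call in 6 of 10 fits (adjusted p up to 0.0892), all but those without WT replicate 2 or 4 or LAIR1KO replicate 1 or 3. Nbn, the most abundant of the 39 genes per length in WT (22.4 ± 1.88 CPM per kb), stood at 51.9 to 64.2 CPM in WT and 52.8 to 71.8 CPM in LAIR1KO (0.14 ± 0.11, edgeR adjusted p = 0.487). Mre11a, the nuclease of the complex (edgeR adjusted p = 0.468), and Rbbp8, which activates it (0.35 ± 0.12, edgeR adjusted p = 0.113), did not pass.

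Of the 3 genes that resolve joined molecules 1 rose. Eme1, the regulatory partner of the MUS81 nuclease (chromosome 11, 94644996 to 94653964, minus strand), was at 2.17, 4.71, 2.38, 4.76 and 7.59 CPM in WT and 12.9, 15.9, 8.75, 17.5 and 13.5 CPM in LAIR1KO. The groups did not overlap (log2 fold change 1.66 ± 0.32, edgeR adjusted p = 0.00797, and 0.0559 without LAIR1KO replicates 4 and 5). Exons of Eme1 overlapped antisense Lrrc59 over 8.0% of their length, and Lrrc59 had a mean of 2443 counts against 126 and a log2 fold change of 0.43 (edgeR adjusted p = 0.108). Mus81 itself stood at 17.3 ± 5.14 and 20.7 ± 3.23 CPM (edgeR adjusted p = 0.504). Blm, the helicase mutated in Bloom syndrome, had a log2 fold change of 0.90 ± 0.25 and an adjusted p of 0.0502 by edgeR, just above the threshold. LAIR1KO replicates 4 and 5 held 36.1 and 31.4 CPM of Blm and the other LAIR1KO libraries 15.5 to 21.1, against 8.33 to 16.8 CPM in WT. Blm passed without WT replicate 5, without LAIR1KO replicate 1 and without LAIR1KO replicate 3 (adjusted p from 0.0307), and DESeq2 called it.

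In the Fanconi pathway 2 of the 3 genes for UBE2T and its targets FANCD2 and FANCI rose. Fancd2, the protein that receives ubiquitin (chromosome 6, 113531682 to 113597017, plus strand), was at 2.76, 2.36, 4.02, 4.62 and 8.44 CPM in WT and 8.63, 14.5, 8.62, 20.6 and 25.2 CPM in LAIR1KO. LAIR1KO replicates 1 and 3 lay just above WT replicate 5, with a log2 fold change of 1.80 ± 0.39 (edgeR adjusted p = 0.0142, and 0.112 without LAIR1KO replicates 4 and 5). Ube2t, the enzyme that carries the ubiquitin, went from 6.77 to 11.8 CPM across WT to 14.1 to 16.1 CPM across LAIR1KO (0.70 ± 0.17, edgeR adjusted p = 0.0242). The groups did not overlap, and LAIR1KO replicates 4 and 5 were not the highest. Leaving out WT replicate 2, 3 or 4 or LAIR1KO replicate 2 or 5 ended the call (adjusted p up to 0.0613). Fanci, the partner of FANCD2, was at 7.36 ± 2.44 and 13.8 ± 6.17 CPM (0.91 ± 0.30, edgeR adjusted p = 0.0923, and 0.0438 without WT replicate 5). Exons of Fanci overlapped antisense Polg over 16.0% of their length, with a mean of 1619 counts against 145.

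Of the 8 core complex genes 1 rose, with a median log2 fold change of 0.36. Fancc stood at 15.5, 13.05, 18.3, 15.4 and 15.03 CPM in WT and 21.6, 25.5, 21.7, 21.6 and 26.8 CPM in LAIR1KO, without overlap (0.60 ± 0.13, edgeR adjusted p = 0.0174, and 0.0502 without LAIR1KO replicate 5). The antisense gene 2010111I01Rik, which shares 2.21% of the exon length of Fancc and had a mean of 376 counts against 269, also rose (0.998, edgeR adjusted p = 0.00268), and Gm16133, sharing 16.4%, had a mean of 0.600 counts. Fancg, an adaptor of the core, did not overlap between the groups (34.3 to 39.3 and 42.7 to 57.9 CPM) and missed the threshold (0.35 ± 0.11, edgeR adjusted p = 0.0730). Fancm, the helicase that recruits the core, had a log2 fold change of 0.80 ± 0.29 (edgeR adjusted p = 0.120) and passed without WT replicate 5 or LAIR1KO replicate 3 (adjusted p from 0.0374). Fanca (0.37 ± 0.16, edgeR adjusted p = 0.213) passed without WT replicate 5 (0.0389). Fancb, Fancl (the ligase itself), Fance and Fancf did not pass, with log2 fold changes of 0.44, 0.031, -0.31 and -0.39. Fance was at 16.1 to 24.01 CPM in WT and 15.2 to 17.6 CPM in LAIR1KO. Exon overlap with antisense genes covered 10.5% of Fanca (Zfp276), 13.7% of Fancl (Vrk2) and 14.96% of Fancf (Gas2).

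Of the 6 checkpoint genes 2 rose, the mediator and the kinase that act downstream of ATR. Clspn encodes claspin, which brings CHEK1 to ATR (chromosome 4, 126556935 to 126593903, plus strand). Its levels were 3.01, 2.52, 2.60, 4.83 and 5.65 CPM in WT and 8.95, 10.9, 8.15, 10.05 and 8.77 CPM in LAIR1KO. The groups did not overlap, and replicates 4 and 5 did not stand out among the LAIR1KO libraries (log2 fold change 1.32 ± 0.25, edgeR adjusted p = 0.00694, and 0.0433 without those 2 libraries). Chek1 was at 1.76, 5.22, 1.04, 6.55 and 3.02 CPM in WT and 9.78, 9.95, 5.11, 14.0 and 20.1 CPM in LAIR1KO. LAIR1KO replicate 3 fell within the WT range (1.74 ± 0.46, edgeR adjusted p = 0.0393), and leaving out single libraries ended the call in 8 of 10 fits (adjusted p up to 0.101), all but those without WT replicate 4 or LAIR1KO replicate 3. Topbp1, the activator of ATR, was at 60.7 to 86.1 CPM in WT and 71.3 to 144 CPM in LAIR1KO (0.42 ± 0.17, edgeR adjusted p = 0.173). Chek2, the kinase downstream of ATM, stood at 29.8 ± 1.94 and 34.5 ± 3.78 CPM (edgeR adjusted p = 0.295, 95% interval -0.05 to 0.47).

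The apical kinases Atm and Atr did not pass, and their LAIR1KO libraries fell apart. Atm was at 14.97, 16.9, 14.7, 21.0 and 15.3 CPM in WT and 12.1, 17.3, 13.1, 37.6 and 36.9 CPM in LAIR1KO (0.49 ± 0.31, edgeR adjusted p = 0.389). LAIR1KO replicates 4 and 5 were above every WT library and the other 3 were within or below the WT range. Without those 2 libraries the log2 fold change of Atm was -0.23 (adjusted p = 0.576). Atr, at 20.7 to 33.7 CPM in WT, showed the same pattern, with 44.0 and 49.4 CPM in LAIR1KO replicates 4 and 5 and 21.5 to 29.5 CPM in the others (0.42 ± 0.23, edgeR adjusted p = 0.321, and a fold change of -0.015 without the 2 libraries).

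Ratios between transcripts whose proteins work as partners shifted in some cases. Over 12 such pairs, chosen after the values were seen and therefore not tested, the log2 ratio of the partners (CPM + 0.5) was higher in every LAIR1KO library than in any WT library for 4. In each of these 4 the gene written first had passed as higher and its partner had not. The direction of the shift thus follows from the order of writing and in part restates those calls. The share among other gene pairs was not computed. The ratio of Brca1 to Bard1 was -0.41 ± 0.44 in WT and 1.35 ± 0.73 in LAIR1KO (SD, n = 5), with ranges of -0.94 to 0.16 and 0.73 to 2.57. These ratios are not corrected for gene length, so their shift and not their level is described. Eme1 to Mus81 went from -1.96 ± 0.77 to -0.60 ± 0.30, Rad51b to Rad51c from -1.87 ± 0.25 to -0.63 ± 0.67, and Fancc to Fance from -0.41 ± 0.31 to 0.47 ± 0.14. The ratio of Fancg to Fanca stood at 0.79 ± 0.27 and 0.76 ± 0.11, and that of Rad50 to Mre11a at 0.98 ± 0.23 and 1.18 ± 0.25. A ratio within a library does not depend on the scaling of libraries, apart from the added 0.5 CPM.

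**Figure D3:**
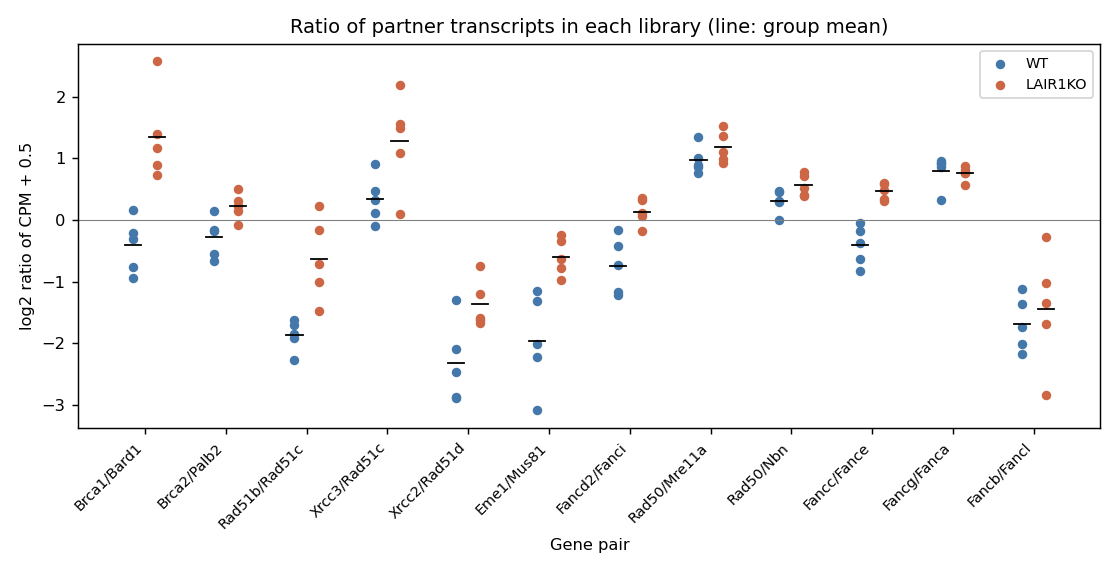
Log2 ratio of CPM + 0.5 (vertical axis) for 12 pairs of partner transcripts, 1 point per library, with lines at the group means; blue is WT and orange LAIR1KO. The LAIR1KO points of Brca1/Bard1, Rad51b/Rad51c, Eme1/Mus81 and Fancc/Fance lie above all WT points of the pair, while those of Fancg/Fanca overlap.

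Further genes of recombination, Fanconi repair and fork protection were read in the same way. Of 43 genes in a list of these pathways outside the 39, 8 rose and 0 fell by edgeR (15 higher and 1 lower at an unadjusted p under 0.05), with a median log2 fold change of 0.25. Fignl1, an ATPase of recombination (1.36 ± 0.25, edgeR adjusted p = 0.00607), the helicase gene Mcm8 (0.98), Cenps (0.93), whose product binds FANCM, and Rpa1, which coats single strands (0.36), had the smallest p-values. Of 13 checkpoint clamp and fork protection genes 3 rose, the fork protectors Timeless (1.12) and Tipin (0.55) and the histone H2afx (0.79), which marks breaks. Without LAIR1KO replicates 4 and 5, 1 of the 43 and 1 of the 13 passed, and the same counts held without WT replicates 1 and 4. After the GC and length trend was taken out, 6 of the 43 were higher and 1 was lower, with a median of 0.14. With the replicate number as a block in the fit, 4 of the 43 were higher and 0 lower.

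Beside these stood the replication and mitosis genes of the same fit. Of 33 replication genes 25 rose, with a median log2 fold change of 0.83, among them Prim1 (1.19), Rrm1 (1.08), Mcm3 (0.89) and Mcm5 (0.86). All 24 mitosis genes of the list rose, with a median of 1.40, the smallest p-values being those of Mki67 (1.35), Ncapg (1.56), Ube2c (1.21) and Aurka (1.08). Without LAIR1KO replicates 4 and 5, 13 replication and 20 mitosis genes passed, and 12 and 18 without WT replicates 1 and 4. The 19 periodic repair genes summed to 255, 264, 264, 262 and 325 CPM in WT replicates 1 to 5 and to 401, 457, 354, 560 and 593 CPM in LAIR1KO replicates 1 to 5. Within LAIR1KO the libraries ran from replicate 3, the lowest, through 1, 2 and 4 to 5. That order was the same for the periodic repair sum, the mitosis sum and the progenitor sum, most of which was Mpo. This did not hold within WT, where replicate 2 had the highest progenitor and mitosis sums (1420 and 715 CPM) and replicate 5 the highest periodic repair sum, with a progenitor sum of 758 CPM. The mean of the periodic repair sum was 1.73 times higher in LAIR1KO, that of the replication sum 1.74 times and that of the mitosis sum 2.54 times. Topbp1 and Rbbp8, which did not pass, made up 45.4% of the periodic repair sum in WT, and without these 2 genes, left out after the values were seen, the ratio was 2.07. The repair sum made up 46.2% ± 5.65 of the mitosis sum in WT (37.0% to 52.3%) and 31.4% ± 2.10 in LAIR1KO (29.1% to 34.7%), without overlap. As a share of the replication sum it was 21.5% ± 1.70 and 21.2% ± 1.25 (SD, n = 5), and 11.7% ± 0.929 and 13.8% ± 1.12 without Topbp1 and Rbbp8. These sums are descriptions of lists chosen with earlier results known and carry no test.

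**Figure D4:**
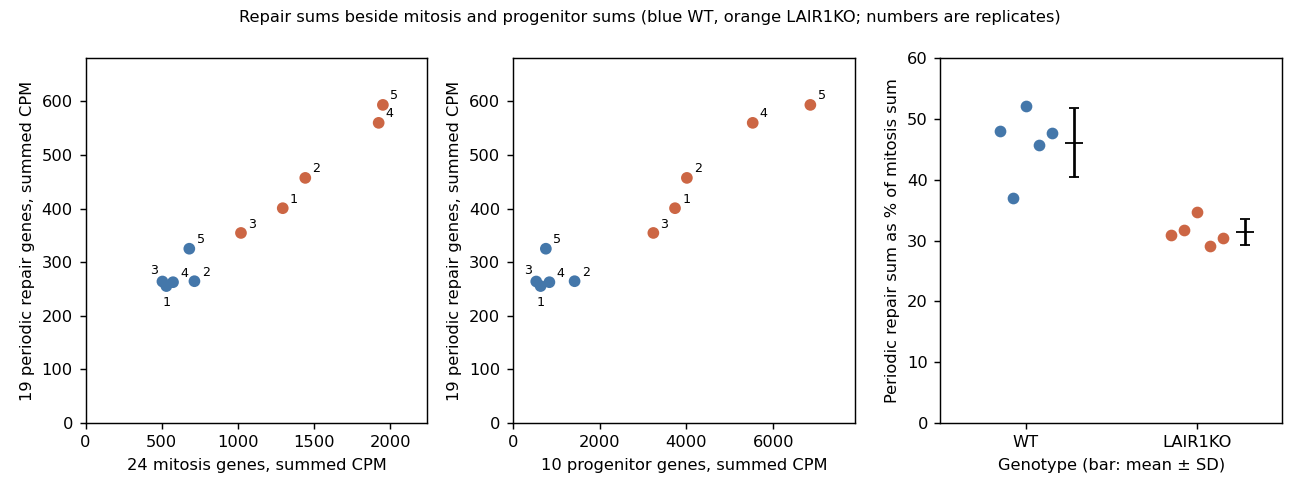
Summed CPM of the 19 periodic repair genes (vertical axis) against summed CPM of 24 mitosis genes (left) and of 10 progenitor genes (middle), 1 numbered point per library, and the repair sum as a percent of the mitosis sum (right) with mean ± SD beside the points; blue is WT and orange LAIR1KO. The 5 LAIR1KO libraries lie above the WT libraries in the first 2 plots and below them, at 29.1% to 34.7%, in the right plot.

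Per length of exon, the levels in WT spanned from 22.4 CPM per kb for Nbn to 0.431 CPM per kb for Rad51b. Nbn was followed by Rad50 (13.1 ± 1.31), Chek2 (9.94 ± 0.647), Fancg (9.88 ± 0.545), Rad51d (7.42 ± 0.809) and Topbp1 (6.68 ± 0.957), of which Chek2 and Fancg, and Rad51d and Topbp1, differed by less than their SD. The lowest were Clspn (0.518 ± 0.199) and Rad51b, after Fancd2 (0.559 ± 0.305) and Rad54b (0.692 ± 0.276). The median was 0.955 CPM per kb in WT for the 15 genes that rose and 2.49 for the 24 that did not, and 2.80 and 2.99 CPM per kb in LAIR1KO. The groups of genes overlapped in WT, where Rad50 and Rad54l (2.53 ± 0.568), which rose, were above the median of the others, and since the split was made by the change itself nothing is read from the smaller gap in LAIR1KO.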

How the data were processed

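RNA of sorted nonclassical monocytes was sequenced in 5 WT and 5 LAIR1KO libraries. The authors deposited raw counts per Ensembl gene without normalization, and the submitters' processing notes name GSNAP and GRCm38.p5. The counting tool, annotation and strand setting are "not stated" in the labels. Library identifiers in the titles tied columns to samples, and 0 columns were left over. GENCODE M21 (GRCm38) named 52489 of 52636 identifiers; RefSeq (GRCm38.p6) gave promoters.

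The deposited counts were tested with edgeR 4.0.16 in R 4.3.3: filterByExpr (minimum count 10, minimum total 15), TMM scaling, the quasi-likelihood test without covariates, and Benjamini-Hochberg adjustment over 13469 genes at a threshold of 0.05. SE is the absolute log2 fold change over the root of F, and 95% intervals use 8 residual degrees of freedom. The procedure was tested on simulated data. Libraries of a group differed well beyond counting noise (chi-square per degree of freedom 15.6 to 79.3).

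The 39 genes and all lists were chosen with earlier results of these data known. All 39 genes are named, with full statistics for up to 3 changed genes per role and the 2 most abundant unchanged ones; other lists give up to 4 changed genes with the smallest p, or 2 where none changed, and marker lists their most abundant gene. Alternatives were RLE, upper-quartile and library-total scaling, no filter or 1 CPM in at least 5 libraries, DESeq2 1.42.0, limma 3.58.1 voom without and with library quality weights, the replicate number as a block, removal of GC and length trends (splines with 5 degrees of freedom, 13449 genes), a threshold of 0.1 and each library left out. Leaving out LAIR1KO replicates 4 and 5 or WT replicates 1 and 4, and the partner ratios, were chosen after seeing the data. Some results are not reported here.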

Additional observations from a re-analysis of the deposited data

Results flagged for a closer look

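In 4 of the 78 groups of 5 values (39 genes in each genotype) 1 library stood far from the other 4, with a gap above 0.71 of the whole range; chance flags about 1 in 20 groups, or 3.90 of 78. WT replicate 5 was the high library in 3 of them. It held 31.3 CPM of Fanca (20.1 in the next and 17.8 in the lowest WT library), 11.9 CPM of Fancm (7.11 and 5.73) and 11.5 CPM of Fanci (6.99 and 5.24). Without this library Fanca, Fancm, Fanci and Blm passed the threshold, while Rad54b, Rad50 and Chek1 no longer did. The count was then 16 repair genes, against 15 with all libraries. LAIR1KO replicate 5 held 7.75 CPM of Fancf, against 2.36 in the next and 1.71 in the lowest LAIR1KO library; exons of Fancf overlap those of antisense Gas2 over 14.96% of their length.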

How the results depend on the processing

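The count of changed repair genes was 15 with RLE and upper-quartile scaling, 18 with library totals, DESeq2 or an adjusted p under 0.1, 14 with no filter, with the GC and length trend removed and with library quality weights, 16 with the filter at 1 CPM and 13 with limma voom. It was 9 to 18 with 1 library left out, 3 without LAIR1KO 4 and 5, and 4 without WT 1 and 4. The count over all genes was 914, and 1379 with library totals, 1516 with DESeq2, 1474 at an adjusted p under 0.1, 535 to 1170 with 1 library left out, 376 without LAIR1KO 4 and 5, and 338 without WT 1 and 4; the last 2 fits have fewer samples, and the cause of the other shifts was not tested. Same-numbered libraries did not deviate together (correlations of -0.0775 to 0.0466). These correlations cannot show whether such libraries were collected or processed together. With the replicate number as a block 600 genes and 10 repair genes passed. All 15 changed genes kept a positive fold change in every fit. Signs turned for 6 others, none called: Rad51d (0.034 with library totals, and -0.18 to 0.034 with 1 library left out), Mus81 (-0.0019 without WT 1 and 4), Fancf (-1.03 to 0.13 with 1 library left out, above 0 without WT replicate 3), Fancl (-0.071 with the GC trend removed, -0.065, -0.030 and -0.0501 without WT replicate 5, LAIR1KO replicate 1 and LAIR1KO replicate 2), and Atm (-0.23) and Atr (-0.015) without LAIR1KO 4 and 5. In the 250 bases before the start alone, 5 of 31 repair genes held an E2F match and 1 a TTTGAA.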

Other observations

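Genes of the other DNA repair pathways were mostly past no threshold. In base excision repair 3 of 16 tested genes rose (6 higher at an unadjusted p under 0.05, 0 lower), with a median log2 fold change of 0.28: Parp1, the sensor of strand breaks, from 105 ± 9.36 to 170 CPM (SD, n = 5; 0.69 ± 0.14, edgeR adjusted p = 0.00860), the glycosylase Neil3 (1.54), also known to act on linked strands, and the endonuclease Apex1 (0.75). Of these 16 genes 1 passed without LAIR1KO replicates 4 and 5, and 0 without WT replicates 1 and 4. Of 9 tested end joining genes 1 (11.1%) rose, against 5.11% of all tested genes. It was Xrcc6, which encodes Ku70 (0.62 ± 0.12, edgeR adjusted p = 0.00808), and the median of the 9 was -0.076. In nucleotide excision repair 1 of 18 genes (5.56%) rose, about the 5.11% of all tested genes, and the median was -0.014. This gene, the damage sensor Xpc, passed narrowly (0.36 ± 0.10, edgeR adjusted p = 0.0499).

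Targets of p53, a transcription factor of the damage response, were called about as often as all tested genes, of which 6.79% changed. Of 15 tested targets 0 were higher by edgeR (0 at an unadjusted p under 0.05) and 1, the pro-apoptotic gene Bbc3, was lower (-0.61 ± 0.13, edgeR adjusted p = 0.0158), with a median log2 fold change of -0.16. The most abundant marker genes of each cell type list stood at 5461 and 4738 CPM for Csf1r, 648 and 423 for Ccr2, 518 and 3401 for Mpo, 414 and 399 for Csf3r, 220 and 37.3 for Hbb-bs, 1138 and 1106 for Ighm, 11.1 and 28.2 for Nkg7, 113 and 94.7 for Tcf4 and 912 and 716 for Adgre1, in WT and LAIR1KO.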
